A study of Drosophila melanogaster with 3 samples.

Results

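Insensitive (Insv) peaks at head-to-head gene pairs were taken from chromatin immunoprecipitation followed by sequencing (ChIP-seq) in Drosophila melanogaster embryos. A head-to-head pair is a pair of neighbouring protein-coding genes on opposite strands whose outermost transcription starts face away from each other, here 0 to 1000 bp apart. A peak that the authors deposited as reproducible by the irreproducible discovery rate (IDR), a measure of agreement between replicates, was kept if its summit lay within 500 bp of either start. Of the 4753 IDR peaks on the dm6 build, 1237 met this rule, or 26.0% (Wilson 95% interval 24.8 to 27.3). They were compared with 1315 peaks within 500 bp of the start of a gene in no such pair, called single-promoter peaks. The remaining 2201 peaks lay elsewhere.

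The embryos came from a transgenic line, insv-GFP, that stably expresses Insv with green fluorescent protein at its C-terminal end. Mixed-sex whole embryos collected at 0 to 24 h gave 3 biological replicates, each precipitated with an anti-GFP antibody from chromatin fragments of 200 to 800 bp. Since the 3 replicates share 1 condition, comparisons are between regions of the genome. In whole embryos, binding in fewer cells and weaker binding per cell cannot be told apart. The sources used here give no read numbers, so depth is unknown.

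Insv is a nuclear corepressor of the Notch pathway that binds DNA through a BEN domain. A head-to-head pair shares the DNA between its starts, which can serve as the promoter of both genes and is often called a bidirectional promoter. In flies such promoters are common at broadly expressed genes, and they often carry sites of DREF, M1BP and BEAF-32, proteins known from housekeeping promoters and chromatin boundaries. The Elba complex contains Elba2, a BEN-domain relative of Insv.

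The DNA between the starts is shown for 6 pairs, to let the sites and the summit be read in place. They were taken in order of signal score among pairs with starts 60 to 300 bp apart and the summit between the starts, on the arms from which sequence is shown. The first 4 hold a motif between the starts, and the last pair of lines hold none of the 14 motifs sought. Capitals mark motif matches on either strand: CGATA for BEAF-32, GGTCACAC for M1BP, CATCNCTA for the core promoter element Ohler 7, TATAAA for the TATA box, and the degenerate Insv site. The sequence is that of the RefSeq copy of the Release 6 genome, the same assembly as dm6, read from 5′ to 3′ on the plus strand.
eIF2Bepsilon/Ocrl, chrX:1922875-1922980, plus strand: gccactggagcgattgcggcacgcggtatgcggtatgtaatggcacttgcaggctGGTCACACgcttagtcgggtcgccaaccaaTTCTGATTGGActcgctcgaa
shtd/CG6294, chrX:15462442-15462721, plus strand: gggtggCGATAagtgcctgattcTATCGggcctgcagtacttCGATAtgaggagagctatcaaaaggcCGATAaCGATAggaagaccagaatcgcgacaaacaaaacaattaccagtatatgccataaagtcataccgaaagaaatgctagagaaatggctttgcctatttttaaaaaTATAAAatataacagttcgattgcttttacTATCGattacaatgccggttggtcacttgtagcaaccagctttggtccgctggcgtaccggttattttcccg
scaf6/Papst2, chr3L:17042575-17042796, plus strand: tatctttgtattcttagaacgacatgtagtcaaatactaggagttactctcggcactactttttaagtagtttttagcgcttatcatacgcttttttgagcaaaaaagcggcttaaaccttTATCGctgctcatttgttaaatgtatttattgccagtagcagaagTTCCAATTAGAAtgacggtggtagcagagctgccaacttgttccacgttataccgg
HDAC3/Hcs, chr3R:5474601-5474898, plus strand: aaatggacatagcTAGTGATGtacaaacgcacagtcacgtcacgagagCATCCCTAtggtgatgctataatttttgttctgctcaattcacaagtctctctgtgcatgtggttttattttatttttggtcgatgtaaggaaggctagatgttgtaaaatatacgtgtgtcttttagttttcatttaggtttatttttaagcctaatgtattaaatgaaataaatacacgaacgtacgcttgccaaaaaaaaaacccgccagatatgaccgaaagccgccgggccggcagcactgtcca
mRpS21/Droj2, chr3R:13381810-13382105, plus strand: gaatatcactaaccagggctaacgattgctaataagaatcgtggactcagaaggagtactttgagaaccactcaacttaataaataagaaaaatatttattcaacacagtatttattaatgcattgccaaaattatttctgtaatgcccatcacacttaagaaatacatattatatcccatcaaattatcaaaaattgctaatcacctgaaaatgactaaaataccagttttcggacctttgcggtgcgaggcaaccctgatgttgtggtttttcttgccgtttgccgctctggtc
CG10674/CG4611, chr3L:5136293-5136375, plus strand: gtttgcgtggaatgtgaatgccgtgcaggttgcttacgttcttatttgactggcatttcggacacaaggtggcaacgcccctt

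In the eIF2Bepsilon/Ocrl interval the summit fell on base 83, just before the degenerate Insv site. eIF2Bepsilon belongs to the exchange factor that recharges eIF2 during translation initiation, and Ocrl is an inositol phosphatase. In the scaf6/Papst2 interval the summit, base 168, fell inside the run of capitals that holds overlapping matches to the degenerate Insv site. Papst2 carries the sulphate donor PAPS into the Golgi. A motif match is a description of letters and not a measured binding site.

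Head-to-head pairs were bound far more often than single promoters. Of 2436 pairs, 1106 had a summit within 500 bp of either start, or 45.4% (Wilson 95% interval 43.4 to 47.4), and in 954 of these both genes had one. By gene, 42.1% of the 4650 genes in pairs had a summit within 500 bp, against 13.2% of the 9295 genes in no pair and 22.8% of all 13945 protein-coding genes. A summit near both starts counts for both genes, so these counts do not show separate binding at each gene.

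These shares use windows of unequal size, because the window around a pair grows with its spacing. In windows of equal length (1001 bp), centred on the midpoint of each pair or on the start of each single promoter, 1067 of 2436 pairs held a summit, or 43.8% (41.8 to 45.8). The single promoters held one in 1227 of 9295 windows, or 13.2% (12.5 to 13.9). Among the strongest 4753 regions of each replicate, pair windows held a summit in 45.3% of cases in replicate 1, 42.4% in replicate 2 and 37.6% in replicate 3. Single promoters held one in 13.0%, 13.1% and 12.2%. The groups did not overlap, and the pairs were higher in 3 of 3 replicates, by 29.0 percentage points ± 3.46 (SD, n = 3). The exact two-sided sign-flip test gave p = 0.25, the smallest that 3 replicates allow. A pair window holds the starts of both genes and a single-promoter window only 1 start. How much of the difference goes with the number of starts was not tested. The groups also hold different kinds of genes: 59.1% of the cytosolic ribosomal protein genes were in pairs, and 10.7% of the cuticle protein genes. The part of gene function in the difference was not tested either.

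Binding varied with the distance between the starts. At spacings of 201 to 400 bp, 483 of 879 pairs were bound, or 54.9% (51.6 to 58.2), and at 501 to 1000 bp 214 of 621 were, or 34.5% (30.8 to 38.3). In the replicates the closer group was bound in 56.1%, 54.3% and 46.2% of pairs, and the wider group in 35.9%, 32.4% and 31.7%. The difference, 18.8 points ± 3.89 (SD, n = 3), had the same direction in 3 of 3 replicates. Pairs with starts at most 50 bp apart were bound in 39.7% of 151 cases, with an interval of 32.3 to 47.7. The share did not fall steadily with distance, since the shortest spacings were also below those of 201 to 400 bp. The limit of 1000 bp marked no step: 22 of 85 pairs at 901 to 1000 bp were bound, or 25.9%, and 22 of 87 at 1001 to 1100 bp, or 25.3%.

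**Figure D1:**
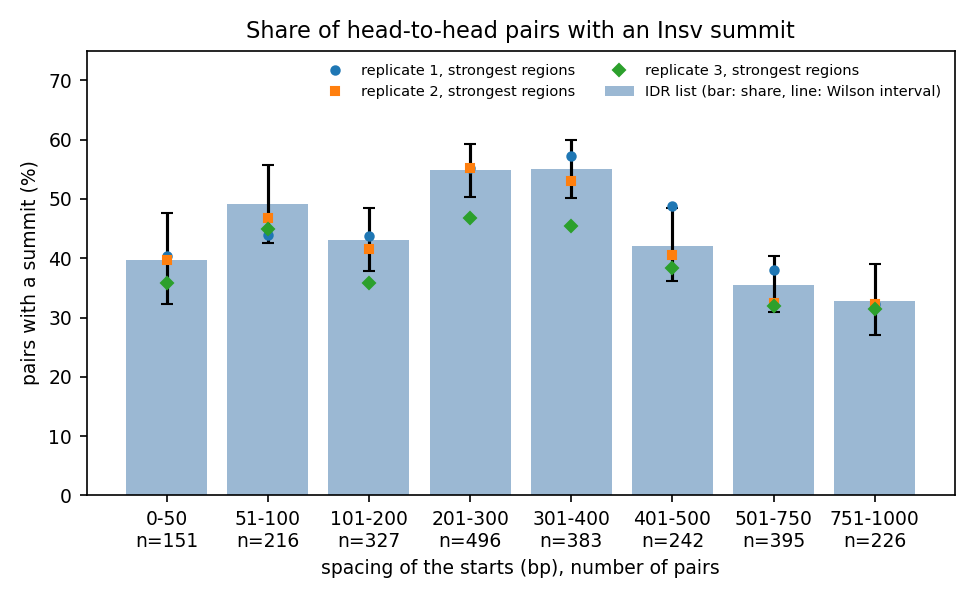
Share of head-to-head pairs with an Insv summit within 500 bp of either start (vertical axis, %), by spacing of the starts (horizontal axis, bp, with the number of pairs). Bars give the IDR list with Wilson 95% intervals and symbols the strongest regions of each replicate; the share is 54.8% and 55.1% at 201 to 300 and 301 to 400 bp and 32.7% at 751 to 1000 bp.

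The summits lay mostly in the shared DNA. Between the starts lay 800 of 1237, or 64.7% (62.0 to 67.3). The strongest regions of the replicates gave 66.7% in replicate 1, 64.0% in replicate 2 and 58.0% in replicate 3, so replicate 3 was the lowest here as in the share of pairs bound. Of the 437 summits outside, 192 lay on the side of the minus-strand gene and 245 on that of the plus-strand gene, at a median of 95 bp into the gene. Near both starts lay 1007 members, or 81.4%, and near a single start 230.

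The share between the starts must be read against the room there is. At spacings of 201 to 500 bp, 514 of 650 summits lay between the starts, or 79.1% (75.8 to 82.0). The weaker regions of the pooled list, whose summits lay outside every IDR peak, fell between the starts of pairs of the same spacing in 332 of 614 cases, or 54.1% (50.1 to 58.0). At spacings of at most 100 bp the IDR peaks gave 45 of 180 (Wilson 95% interval 19.2% to 31.8%), and the weaker regions 52 of 211, or 24.6% (19.3 to 30.9). At 201 to 500 bp the share between the starts was above that of the weaker regions. At the shortest spacings the intervals overlapped almost wholly. An IDR peak at a bound pair can cover much of the shared DNA, and weaker summits inside it were left out. This can lower the weaker share by construction, so the difference cannot be read as a preference for the shared DNA. In the replicates, 80.2%, 77.2% and 71.8% of summits at 201 to 500 bp lay between the starts. Each was above the share of the weaker regions, with the same limit.

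**Figure D2:**
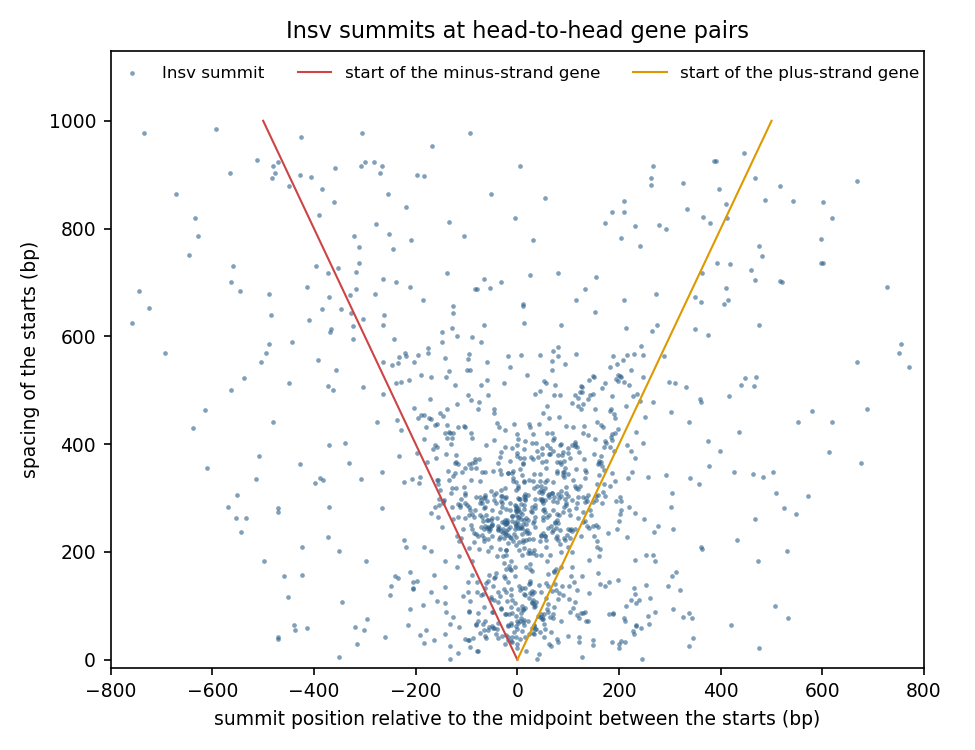
Position of each of the 1237 Insv summits relative to the midpoint between the starts (horizontal axis, bp, positive toward the plus-strand gene), by spacing of the starts (vertical axis, bp). Lines mark the starts; the densest cloud lies between them at spacings of 201 to 400 bp.

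Within the shared DNA the place of the summits changed with the spacing. Among 414 summits between starts 201 to 400 bp apart, 43.7% lay in the central of 3 equal parts of the interval, and 62.6% within 100 bp of a start. Among 263 summits between starts 401 to 1000 bp apart, 25.1% lay in the central part, and 43.0% within 100 bp of a start. The median distance to the nearest start was 87.0 bp in the first group and 118 bp in the second. Summits in wider intervals were thus less often in the central part. A distance of 100 bp covers a smaller part of a wider interval. The shares within 100 bp and the medians therefore cannot be compared between the groups as they stand.

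Relative to the nearest start, 39.8% of the members lay 1 to 100 bp upstream, against 30.3% of single-promoter peaks and 29.2% of the weaker regions at pairs. The whole upstream side held fewer of the members, 64.4%, than of the single-promoter peaks, 71.0%, and 48.5% of the weaker regions. In the strongest regions of the replicates the share at pairs was 40.7%, 39.4% and 34.7%, and at single promoters 29.5%, 29.4% and 29.2%. The median distance to the nearest start was 83.0 bp at pairs and 122 bp at single promoters. A pair offers a choice of starts, and the DNA between them is upstream of both, so by construction these shares and medians cannot be compared between pairs and single promoters as they stand. The weaker regions at pairs share that construction, but they leave out summits inside IDR peaks, which can lower their upstream shares.

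**Figure D3:**
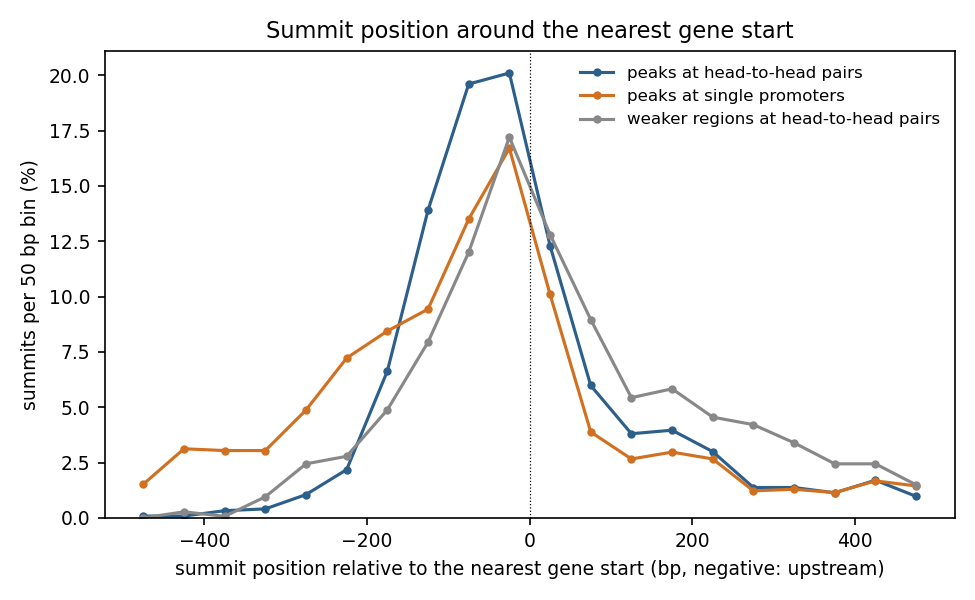
Summit position relative to the nearest gene start (horizontal axis, bp, negative upstream) as the share of summits in each 50 bp bin (vertical axis, %), for IDR peaks at pairs, IDR peaks at single promoters and weaker regions at pairs. The pair peaks hold 20.1% of their summits in the 50 bp upstream of the start and the single-promoter peaks 16.7%.

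A small asymmetry between the strands was measured. The start of the plus-strand gene was the nearer one for 666 summits and that of the minus-strand gene for 569, with 2 at equal distance. The median offset from the midpoint was 12 bp toward the plus-strand gene. In the replicates it was 15.0, 10 and 17.5 bp, in the same direction in 3 of 3. The offset is small against the median absolute offset of 104 bp.

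The precision of the summits depends on how the regions were called. Of the members, 715 had a length of exactly 510 bp, and all 715 had the summit at the centre. The other 522 had other lengths. The summit lay between the starts in 70.1% of the first and 57.3% of the second kind. Both were above the 48.9% of all weaker regions at pairs, a share that leaving out summits inside IDR peaks can lower.

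Most bound pairs carried a single summit. Members were assigned to 1015 pairs, of which 806 had 1 summit, 197 had 2, and 12 had 3 or more, with 4 at most. Where there were 2, they lay a median of 205 bp apart. At some of these pairs, such as CG14435/Tmf, both summits belong to the same called region. How far the distance reflects the calling of summits was not tested. Both lay between the starts in 62 of these pairs, 1 in 93 and none in 42. Merging members that overlapped left 1035 separate loci.

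Occupancy was spread over the chromosome arms. The share of pairs bound was 40.5% on 2L, 44.1% on 2R, 45.1% on 3L, 43.3% on X and 52.1% on 3R (Wilson 95% interval 48.2 to 55.9). In the replicates 3R gave 50.2%, 47.5% and 42.9%, and 2L 42.6%, 41.3% and 34.5%, so 3R was above 2L in each. On the small heterochromatic chromosome 4, 0 of 8 pairs had an IDR summit, which allows a share of up to 32.4% by the Wilson interval. In each replicate, 12.5% of these 8 pairs had one among the strongest regions.

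Peak strength was given as a rank, since the scale of the authors' signal score is not stated. A percentile of 100 marks the region with the highest score in a replicate's list of 30000. Each IDR summit took the percentile of the strongest replicate region that contained it. Summits inside the same region therefore share its percentile and are not independent. The IDR peaks at pairs had median percentiles of 93.6, 92.4 and 91.7 in the replicates, and those at single promoters 92.3, 92.2 and 92.0. The difference was 1.25 points in replicate 1, 0.202 in replicate 2 and -0.343 in replicate 3, a mean of 0.368 ± 0.808 (SD, n = 3). The exact two-sided sign-flip test gave p = 0.75, with 0.25 as the smallest possible. The spread between replicates was larger than the difference, which had no common sign. So pairs were bound more often than single promoters, while no difference in the rank of their bound regions was detectable.

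Within the members, peaks near a single start ranked higher than peaks near both. Of the former, 40 of 230 were among the strongest 475 IDR peaks, or 17.4%, and of the latter 77 of 1007, or 7.65%. Median percentiles near a single start were 94.8, 95.2 and 95.0 in the replicates, and near both starts 93.3, 92.0 and 91.1. The values did not overlap, with a difference of 2.86 points ± 1.24 (SD, n = 3). The groups also differ in spacing. Near both starts lay 284 of 297 members at spacings of 201 to 300 bp, but 6 of 82 at 751 to 1000 bp. How much of the difference in rank goes with spacing was not tested. At the edge of the rule, the 11 summits 451 to 500 bp from the nearest start had a median percentile of 67.9 within the IDR list, and the 5 at 501 to 550 bp from a start of a pair had 83.7.

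The replicates placed most members in similar ranks, which the choice of IDR peaks for agreement between these replicates favours by construction. Of the 1237 members, 876 lay in the strongest regions of all 3 replicates, or 70.8%. So did 893 of the single-promoter peaks, or 67.9%, and 1457 of the other IDR peaks, or 66.2%. A q-value below 0.05 was reached by 1201 members in replicate 1, 1233 in replicate 2 and 1226 in replicate 3. Of the 30000 regions of each list, 8416, 13955 and 12195 reached it. The selection of IDR peaks favours such q-values too, so these counts show nothing particular to pairs. Of 1211 members with a region in every replicate, the median SD of the percentile was 2.07, and 224 had an SD above 5. The widest spread was at Ndfip/CG7484, whose percentile was 5.62, 96.11 and 93.63 in replicates 1, 2 and 3. At CRIF/SMC5 the low replicate was another, with 93.10, 87.59 and 28.81. SMC5 is part of a complex that keeps chromosomes intact.

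The 12 strongest members lay at genes of varied function. The first, the peak at Gnptab/VhaAC45, ranked 5 in the IDR list and lay on 2R from 9206782 to 9208024. The summit was 241 bp from the start of Gnptab and 196 bp from that of VhaAC45. Its percentiles were 99.98, 99.99 and 99.98. VhaAC45 is an accessory subunit of the vacuolar proton pump, and the human counterpart of Gnptab tags lysosomal enzymes. None of the 14 motifs lay within 50 bp of this summit.

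At CG11882/Pglym78, ranked 10, the starts were 76 bp apart and the summit lay 11 bp inside Pglym78, which encodes the glycolytic enzyme phosphoglycerate mutase. An Elba site, CCAATAAG, lay within 50 bp. At Dpit47/Adf1, ranked 15, the summit lay 124 bp inside Dpit47, an Hsp90 co-chaperone, and 271 bp from the start of the transcription factor gene Adf1, beside an M1BP site. ATPsynF/CG3548, ranked 22, had its summit 16 bp from the start of CG3548 and 110 bp from that of ATPsynF, a subunit of the mitochondrial ATP synthase. The first of these peaks thus included summits just inside a gene as well as between the starts.

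CG3902/RpL26, ranked 27, had widely spaced starts, 582 bp apart, and its summit lay 48 bp from RpL26, a protein of the large ribosomal subunit, and 534 bp from CG3902. A DREF site and an Ohler 7 match lay within 50 bp. Lnpk/rgr, ranked 30, held both forms of the Insv site under its summit, 79 bp from the start of Lnpk, which shapes the junctions of the endoplasmic reticulum. Tes/qkr54B, ranked 38, held an Elba and a DREF site. The gene Tes encodes a LIM-domain protein and qkr54B an RNA-binding protein.

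CG14435/Tmf, ranked 44, r-l/dmrt93B, ranked 46, and trsn/Pef, ranked 47, complete the 12 strongest with the pairs HemK2/Tnpo-SR, ranked 36, and eIF2Bepsilon/Ocrl, ranked 43. Tmf is a Golgi protein, r-l encodes an enzyme of pyrimidine synthesis, dmrt93B a relative of the sex-determination factor doublesex, and trsn the nucleic acid-binding protein translin. At r-l/dmrt93B the starts were 688 bp apart and the summit lay 27 bp from the start of r-l. The 12 peaks had percentiles between 99.76 and 99.99 in every replicate, and ranks from 4 to 72 among the 30000 regions of a list. The ranks of trsn/Pef were 72, 39 and 40 in replicates 1, 2 and 3, the widest spread of the 12.

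The insv gene itself stands head to head with Elba2. The starts were 690 bp apart on 2L, at 2576997 and 2577687, and the peak between them ranked 57 in the IDR list. Its summit at 2577288 lay 291 bp from the start of insv and 399 bp from that of Elba2. Percentiles were 99.73, 99.84 and 99.89. None of the motifs sought lay within 50 bp of the summit.

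Motifs under the summits were counted on both strands within 50 bp, beside single-promoter peaks. The Insv core site, CCAATTGG, lay under 33 member summits, or 2.67%, and under 3.12% at single promoters. With the degenerate form, whose letters partly overlap the core, 56 members held a site, or 4.53% (3.50 to 5.83), against 5.40% (4.30 to 6.76). Among the stronger 50% of the IDR peaks the share of members with a site was 8.49%, and within 25 or 100 bp in place of 50 bp it was 2.34% or 6.87%. The replicate values for either form were 3.89%, 4.70% and 5.05% at pairs and 5.37%, 4.78% and 5.22% at single promoters. Most members thus had no copy of Insv's own site under the summit. The groups overlapped, though the pair value was the lower one in each replicate. The mean difference was -0.573 points ± 0.779 (SD, n = 3; exact two-sided sign-flip p = 0.25, the smallest possible). The degenerate form alone gave 2.49%, 3.08% and 3.19% at pairs and 3.42%, 3.36% and 3.53% at single promoters, without overlap. The core alone was higher at pairs in 1 replicate.

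The DREF site, TATCGATA, which contains the BEAF-32 letters, was more frequent under member summits. It lay under 74 of them, or 5.98% (4.79 to 7.45), and under 64 single-promoter summits, or 4.87% (3.83 to 6.17), so these intervals overlapped. Within 25 or 100 bp the share of members was 2.83% or 11.0%. Among the strongest regions of the replicates the share at pairs was 5.76%, 6.24% and 6.83%, and at single promoters 4.82%, 4.41% and 3.45%. The pair values were higher in 3 of 3 replicates, by 2.05 points ± 1.23 (SD, n = 3; exact two-sided sign-flip p = 0.25, the smallest possible). The Ohler 7 element behaved alike, with 3.92% ± 0.184 at pairs and 2.62% ± 0.422 at single promoters, and so did BEAF-32, with 27.1% ± 1.28 and 24.4% ± 1.57 (SD, n = 3 each). In the IDR list their intervals overlapped too, at 3.15 to 5.38 and 2.11 to 3.94 for Ohler 7. For BEAF-32 they were 24.8 to 29.8 and 21.9 to 26.5.

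The TATA box letters lay under 16.9% ± 1.39 of summits at pairs and 12.5% ± 0.631 at single promoters. The DNA around member summits was poorer in G and C, with a mean of 37.7% against 41.4% in the IDR list, and the part of this difference in the A- and T-rich matches was not tested. M1BP sites were about equally frequent, at 4.40% ± 0.203 and 4.74% ± 0.625. For the DPE, in the forms AGACGTG and AGTCGTG or with G as first letter, the values were 2.67% ± 0.224 and 2.29% ± 0.349.

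Other sites were rarer at pairs. GAGA letters, GAGAGAG, bound by the GAGA factor Trl, lay under 0.937% ± 0.111 of summits at pairs and 3.20% ± 0.418 at single promoters, lower in 3 of 3 replicates. The E-box CACGTG lay under 1.24% ± 0.166 and 1.96% ± 0.186, and the Zelda site CAGGTAG, of the early embryonic activator, under 0.323% ± 0.145 and 0.738% ± 0.234. In the IDR list the Zelda site lay under only 3 member and 9 single-promoter summits, with overlapping intervals (0.0825% to 0.711% and 0.360% to 1.30%). The Initiator, TCAGTC or TCAGTT, lay under 8.36% ± 0.449 and 9.75% ± 1.02. For Elba sites, 1.33% ± 0.213 and 1.20% ± 0.108, and for Su(H), the DNA-binding factor of the Notch pathway, 1.23% ± 0.333 and 0.993% ± 0.0646, the pairs were higher in 2 of 3 replicates. The Su(H) forms sought were TGTGGGAA and TGTGAGAA, each also with C as first letter.

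**Figure D4:**
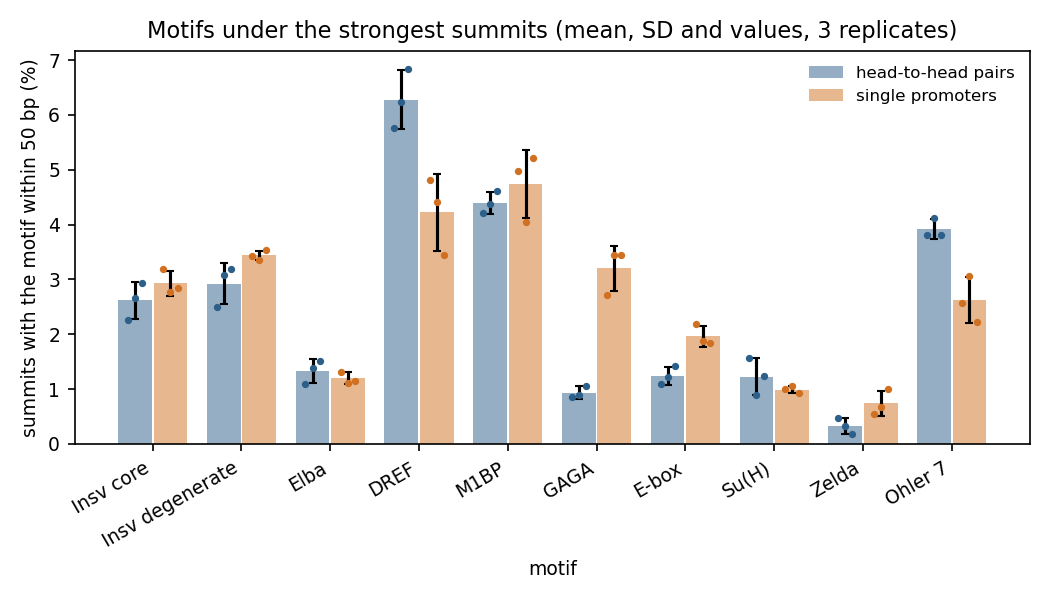
Share of the strongest summits with a motif within 50 bp (vertical axis, %), for 10 motifs (horizontal axis), at head-to-head pairs and at single promoters. Bars are means of 3 replicates, lines their SD and points the replicates. The values of the groups do not overlap for DREF, Ohler 7, GAGA, the E-box, Zelda and the degenerate Insv site.

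The sites differed between members inside and outside the shared DNA. DREF lay under 60 of 800 summits between the starts, or 7.50%, and 14 of 437 outside, or 3.20%, with replicate means of 8.32% ± 1.63 and 3.00% ± 0.612 (SD, n = 3 each). The Insv core ran the other way, under 11 summits between the starts, or 1.38%, and 22 outside, or 5.03%, with replicate means of 1.49% ± 0.200 and 4.53% ± 0.275. Neither motif's values overlapped between the positions. Either form of the Insv site lay under 22 of 230 summits near a single start, or 9.57% (6.40 to 14.1), and under 34 of 1007 near both, or 3.38% (2.43 to 4.68). The replicates gave 9.83%, 11.2% and 9.51% near a single start and 2.57%, 3.20% and 3.70% near both. Members near a single start come more often from widely spaced pairs, and the part of spacing in this difference was not tested.

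Bound and unbound pairs were also compared by their sequence, in a window of 250 bp on each side of the midpoint. Pairs with an Insv site were few but mostly bound. The degenerate site was found in 39 of 2436 pairs, 1.60%, against 0.818% of windows at single promoters, and 36 of the 39 were bound, or 92.3% (79.7 to 97.3). The core site was found in 46 pairs, of which 34 were bound, or 73.9% (59.7 to 84.4), and the Elba site in 43, of which 34 were, or 79.1% (64.8 to 88.6). All 3 shares lay above the 45.4% of all pairs. In the strongest regions of the replicates, 3.42% ± 0.285 of bound and 0.218% ± 0.0133 of unbound pairs held the degenerate site.

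Sites of housekeeping promoters were common in pairs, bound or not. DREF letters were found in 19.3% of all pairs and 6.30% of single promoters, M1BP in 16.3% and 5.37%, and Ohler 7 in 14.2% and 5.43%. Of the pairs with an Ohler 7 match, 60.8% were bound (55.6 to 65.8), of those with M1BP 54.8% (49.9 to 59.6), and of those with DREF 52.9% (48.4 to 57.4). The E-box was found in 6.94% of pairs and 6.59% of single promoters, and 58.0% of the pairs with it were bound. GAGA pairs were the opposite, with 35 of 120 bound, or 29.2% (21.8 to 37.8). Bound pairs held GAGA letters in 3.23% ± 0.277 and unbound pairs in 6.25% ± 0.391 of windows, lower in 3 of 3 replicates.

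The other motifs were counted in the same windows. The Initiator, like the GAGA letters, was less frequent in bound pairs, in 35.4% of them and 41.6% of unbound pairs. BEAF-32 letters were in 70.1% of pairs and 55.4% of single promoters, and 46.1% of the pairs with them were bound. For the TATA box the values were 64.7%, 53.3% and 44.5%, for the Initiator 38.8%, 50.7% and 41.5%, and for the DPE 9.28%, 11.4% and 40.7%. For Su(H) they were 4.72%, 5.26% and 50.4%, and for Zelda 2.42%, 3.07% and 37.3%.

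Gene function was described with 22 gene lists, read against the 42.1% of all genes in pairs that were bound. The genes of a pair often share a peak, so the genes of a list are counted with their partners' peaks. The cytosolic ribosomal proteins stood highest: 55 of 93 were in pairs, and 46 of these were bound, or 83.6% (71.7 to 91.1). Those in no pair were also bound often, in 27 of 38 cases, or 71.1%. Here and below, the summit given for a gene of a list is its strongest within 500 bp. RpL8, whose start lies 916 bp from that of the kinase gene msn, had this summit 452 bp away, with an Insv core site. A weaker one, at IDR rank 513, lay 192 bp from its start. RpL34b, paired with CG8132, had the summit 73 bp from its start.

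Other parts of the protein synthesis machinery were mixed. Of 22 aminoacyl-tRNA synthetase genes in pairs, which charge tRNAs, 15 were bound, or 68.2% (47.3 to 83.6), and 4 of 11 in no pair. The strongest was AlaRS-m, whose start lies 35 bp from that of Fitm, with the summit between them. TyrRS and ValRS followed, both with an M1BP site under the summit. Translation initiation factors were bound in 10 of 20 cases and in 10 of 24 in no pair, with eIF2Bepsilon, eIF4EHP and eIF2Bdelta the strongest. Mitochondrial ribosomal proteins, of which 76.0% were in pairs, were bound in 29 of 57 cases, or 50.9% (38.3 to 63.4), and in 6 of 18 in no pair, with mRpS21, mRpL41 and mRpS23 the strongest.

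Genes of energy metabolism and protein turnover in pairs were bound near the background of pairs, with intervals that included it. For the respiratory chain and ATP synthase the count was 19 of 40, led by ATPsynF, the complex I subunit ND-18 and blw, the ATP synthase alpha subunit. Only 8 of 49 such genes in no pair were bound, or 16.3%, close to the 13.2% of such genes. For the proteasome it was 10 of 22, led by Rpt4, Rpt3 and Rpn7, against 4 of 26 outside. At Rpt4/mldr the starts were 58 bp apart and the strongest summit lay 1 bp from the start of mldr.

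Chaperones gave 11 of 20, led by Dpit47, CCT6 and Hsp83, and 6 of 22 in no pair. The vacuolar proton pump gave 7 of 12 and 6 of 21. Mitochondrial import gave 3 of 5, led by Tim10, Tim8 and Tom7, and 1 of 11. Autophagy genes, of which 80.0% were in pairs, gave 9 of 16, led by Atg17, Atg4b and Atg18a, and 0 of 4 outside. Vha36-1, after VhaAC45 the strongest of the pump genes, shared an interval of 72 bp with CG8187, with the summit 37 bp from its start. Vha13 came next. At the Hsp83 locus, the fly Hsp90 gene, the summit lay 122 bp inside the gene.

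Nuclear machines in pairs were also bound near the background. For RNA polymerase II and the general factors, led by TfIIS, Polr2B and Taf4, the share was lower in pairs, 13 of 28 or 46.4%, than in no pair, 8 of 15 or 53.3%. The Mediator, led by MED27, MED30 and MED17, gave 8 of 20 and 1 of 9. Nuclear pore genes gave 8 of 17 and 1 of 5, with Nup205, Nup37 and Nup98-96 first, and DNA replication genes 9 of 21 and 4 of 13, with Orc2, PCNA2 and the pair RPA1/Mcm2 first. Cell cycle genes gave 8 of 18 and 10 of 25, with shtd, a subunit of the anaphase-promoting complex, stg, the mitotic phosphatase, and Cdk12 first. The spliceosome was lowest among them, with 10 of 29, or 34.5% (19.9 to 52.7), beside 2 of 6 in no pair, and snRNP-U1-C, U2af50 and LSm1 first.

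Of the chromatin insulator and BEN-domain genes in pairs, 9 of 13 were bound, or 69.2% (42.4 to 87.3), and 3 of 9 in no pair, with Elba2, insv and Cp190 first. Cp190 is a shared cofactor of fly insulators, and its summit lay 176 bp from its start and 105 bp from that of CG4338. Notch pathway genes were bound in 6 of 11 cases, or 54.5%, and in 5 of 8 in no pair, or 62.5%, with Nedd4, aph-1 and rumi first. Nedd4 is a ubiquitin ligase that acts on Notch, aph-1 a subunit of gamma-secretase, and rumi a glycosyltransferase of Notch. Their IDR ranks were 1456, 1482 and 1614, all well below the strongest members.

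Genes of sensory receptors, cuticle and cytochrome P450 were rarely in pairs and rarely bound there. The odorant and gustatory receptors had 14 of 120 genes in pairs and 0 bound, and the cuticle proteins 13 of 121 and 0 bound. In no pair, 0 of 106 and 0 of 108 were bound. Counts of 0 allow shares of up to 21.5% and 22.8%, by the Wilson interval. Cytochrome P450 genes had 1 bound of 11, Cyp9f2, at IDR rank 4552, and 1 of 74 in no pair. A single homeobox patterning gene of 39 was in a pair, and it was not bound, too few to read a share from. Of the 38 in no pair 10 were bound, or 26.3%, beside 13.2% of all genes in no pair.

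**Figure D5:**
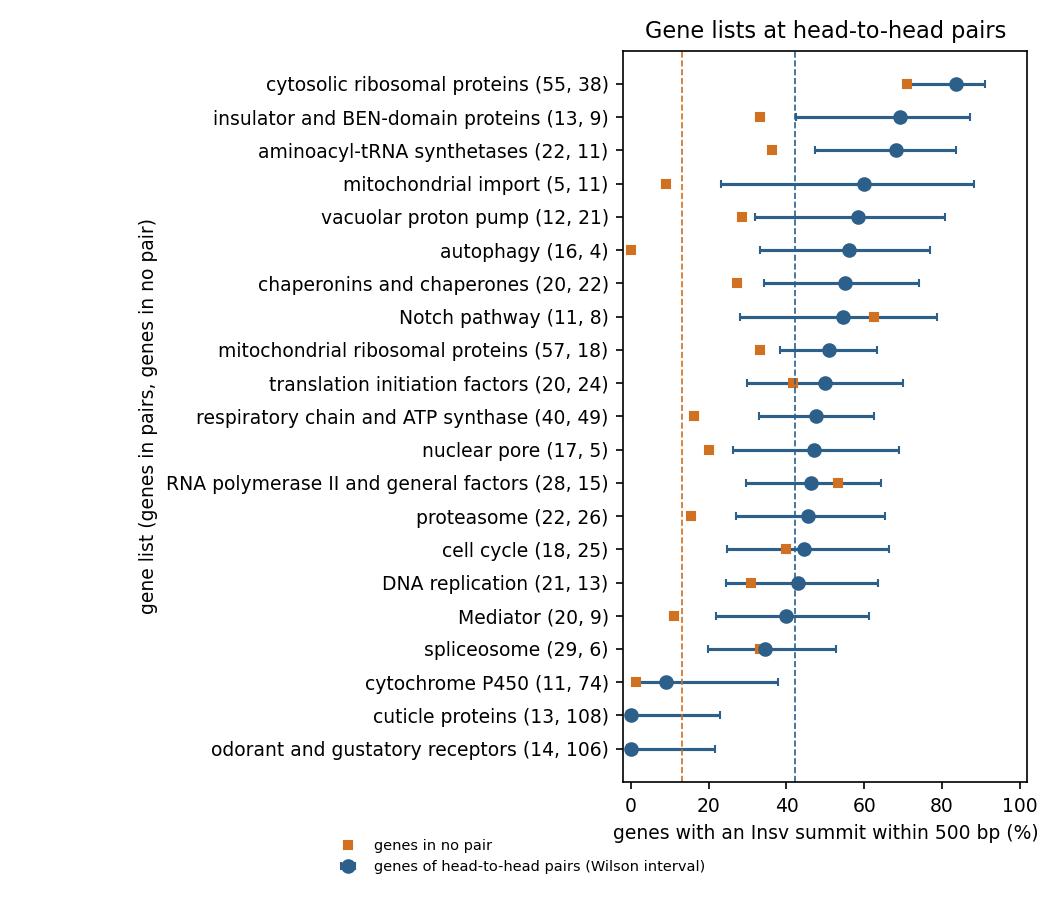
Share of genes with an Insv summit within 500 bp (horizontal axis, %), for gene lists with at least 5 genes in head-to-head pairs (vertical axis, with the number of genes in pairs and in no pair). Circles with Wilson 95% intervals are genes in pairs and squares genes in no pair; the dashed lines mark all genes in pairs (42.1%) and all genes in no pair (13.2%).

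Of 14 pairs whose genes both belonged to 1 list, insv/Elba2 and RPA1/Mcm2 were bound, beside 45.4% of all pairs. The cuticle, cytochrome P450 and gustatory receptor genes, rarely bound in or out of pairs, made up 9 of the 14, and among the other 5 pairs 2 were bound. RPA1 binds single-stranded DNA and Mcm2 is part of the replicative helicase. Their starts lie 519 bp apart on 3R, and the summit, at IDR rank 847, lay 199 bp from RPA1 with percentiles of 96.94, 97.15 and 97.04. The remaining 3 of these had no IDR summit. They were Taf10b/Taf10, subunits of TFIID and related complexes 45 bp apart, Ibf2/Ibf1, insulator-binding factors, and Hsp67Bc/Hsp22, small heat shock proteins.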

How the data were processed

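The authors deposited narrowPeak lists on dm6, of which 3 relaxed lists (1 per replicate), the relaxed list of the pooled replicates and the IDR list were used. Lists on dm3 were not used. The signal score of each region is the authors' own, of unstated scale, and served only to rank regions within a list. The deposited −log10 q-value was used only to count replicate regions below 0.05. The deposited summit offset, another column, gave the summit, the region start plus the offset. The sources used here do not give the caller, aligner or IDR threshold. The IDR list drew on all 3 replicates.

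Genes and starts came from Ensembl release 115 (BDGP 6.54), on the major arms without Y, and sequence from the RefSeq Release 6 genome. Positions count from 1. A peak near several pairs went to the pair with the nearest midpoint. Replicate values used the strongest 4753 regions of each replicate, as many as the IDR list holds. Intervals are Wilson 95% intervals and cover counting error only. Regions are not replicates, so tests were exact sign-flip tests over the replicates. Members, gene lists and motifs were chosen with earlier results of these data known.

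Genes named are those of the 12 strongest members, insv and Elba2, up to 3 bound members of each list with the strongest peaks, and pairs with both genes in 1 list. Sequences were taken in signal order, up to 5 with a motif and up to 2 without, and 1 of those with a motif is not reported here. The most variable members, the arms and the lengths of the regions were chosen after their values were seen. Alternatives were other distances, spacings, starts, pair rules, peak sets and motif windows, and leaving out each replicate. The scripts were tested on simulated data. Python 3.11.15, numpy 2.4.6, scipy 1.17.1 and matplotlib 3.10.9 were used.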

Additional observations from a re-analysis of the deposited data

How the results depend on the processing

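The difference in bound windows between pairs and single promoters kept its direction under every alternative, from 15.9 points with the stronger 50% of the peaks to 31.9 with spacing of at most 500 bp, and from 27.3 to 30.8 with a replicate left out, where 2 replicates allow no p below 0.5. The rank difference to single promoters turned to -0.102 with the stronger 50% and to -0.0708 without replicate 1, and reached 0.724 without replicate 3. No sign of it is therefore stable.

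The count of members fell to 636 with the stronger 50% of the peaks, by construction, and lay between 929 and 1012 with a replicate left out. The share of pairs with a peak was 49.1% with spacing of at most 500 bp, 24.1% with the stronger 50%, and 33.8% to 37.1% with a replicate left out, which keeps only peaks strong in both other replicates. The share of summits between the starts was 57.8% with a distance of 1000 bp, 56.8% with any annotated start, 69.8% with the strongest summit of overlapping peaks, and 62.6% to 64.7% with a replicate left out.

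The share with an Insv site was 3.88% and 6.00% with distances of 250 and 1000 bp, 3.87% with spacing of at most 500 bp, 8.49% with the stronger 50%, 2.34% and 6.87% with motif windows of 25 and 100 bp, and 5.34% to 5.83% with a replicate left out. The share with a DREF site was 6.53% with 250 bp, 6.61% with spacing of at most 500 bp, 6.71% with the strongest summit of overlapping peaks, 2.83% and 11.0% with motif windows of 25 and 100 bp, and 5.81% to 6.56% with a replicate left out. Wider motif windows raise a share by construction, and the cause of the other changes was not tested.

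No paired analysis was possible because the 3 replicates form a single group, with no second group to pair them with. The sign-flip tests used differences between classes of region within each replicate. Depth is unknown, so a pair without a peak is one where none was detected, not one shown to be unbound.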
